A study of Homo sapiens with 6 samples.

Results

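The genes of polyamine synthesis and catabolism were followed in NCI-H660, an established human cell line from neuroendocrine prostate cancer, after treatment with pyrvinium pamoate (PP) or PBS. The 8 genes, *ODC1*, *AMD1*, *SRM*, *SMS*, *SAT1*, *OAZ1*, *OAZ2* and *AZIN1*, were chosen by symbol from the 17177 genes with a deposited value, and all 8 passed the filter on low values (a mean of at least 1 FPKM, fragments per kilobase, scaled to library size), which left 11726 genes for testing. PP is an anthelmintic drug that the study used to inhibit the RNA-binding protein ELAVL3. Each treatment had 3 libraries of wild-type cells collected on day 3, the PBS group serving as the control, and the concentration of PP is not given for these libraries in the sources used here. NCI-H660 is a line from 1 tumor grown in culture. The study calls the 3 samples of a group independent without saying whether they were separate cultures. The p-values therefore set each difference against the spread between these libraries only, which the test estimates in part from other genes.

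Polyamines (putrescine, spermidine and spermine) are small, positively charged molecules that bind nucleic acids and are needed for growth and for translation, and prostate epithelium is known for making them in unusual amounts. Ornithine decarboxylase, encoded by *ODC1*, makes putrescine from ornithine. Spermidine synthase (*SRM*) and spermine synthase (*SMS*) then add aminopropyl groups that are supplied by S-adenosylmethionine decarboxylase (*AMD1*). SAT1 acetylates spermidine and spermine for export or oxidation. The antizymes OAZ1 and OAZ2 bind ornithine decarboxylase and send it to the proteasome, and the antizyme inhibitor AZIN1, a relative of ornithine decarboxylase without its activity, captures the antizymes. Several of these proteins are set mainly by translation and turnover, which mRNA levels do not read.

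*ODC1* is a textbook target of MYC, which binds the E-box CACGTG as a dimer with MAX. The promoter windows of the genes were therefore searched for this motif, and the stretches that hold it are shown first. RefSeq windows on GRCh38.p14, from 250 bases before to 50 bases after each annotated start, were given for 7 of the 8 genes (10 windows). CACGTG, which is its own reverse complement, was present for 2 of the 7, *ODC1* and *SRM*, against 12.8% of the 9488 tested genes with a window and 7.20% of all 34796 windows. The *ODC1* window with the motif belongs to the more downstream of its 2 annotated starts, and the window of the upstream start did not hold these letters. The stretches, read 5′ to 3′ on the gene's strand with the E-box in capitals, were as follows.
*ODC1*, chr2:10447990-10448081, minus strand: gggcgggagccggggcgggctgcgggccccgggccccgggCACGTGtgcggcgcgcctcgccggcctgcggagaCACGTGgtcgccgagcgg
*SRM*, chr1:11060172-11060257, minus strand: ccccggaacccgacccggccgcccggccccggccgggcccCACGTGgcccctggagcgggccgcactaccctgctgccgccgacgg
The first *ODC1* motif begins 29 bases before the downstream start and the second begins at base 6 of that transcript. In GENCODE mapped to GRCh37, where this stretch has 1 match on chromosome 2, it lies in an intron of 3 of the 6 annotated transcripts, the canonical one included, and overlaps an exon of 2 others by 21 and 25 bases. The *SRM* motif begins 199 bases before the start and lies outside all 6 annotated *SRM* transcripts. TGATGNAA, the letters of the element bound by ATF4 with C/EBP proteins, was searched on both strands. It was found in the windows of 0 of the 7 genes, against 2.56% of the tested genes with a window. A match is a run of letters, and binding was not measured here.

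Depth was even over the 6 libraries. Whole counts came back from the FPKM of all 17177 genes and totalled 29064253 to 32481171 per library, the highest total lying 11.8% above the lowest. Replicates differed by more than sampling noise, with a chi-square of 3.37 to 7.07 per degree of freedom within a treatment and of 149 to 170.2 across treatments. The cells carried the markers of their label. *CHGA*, which encodes the secretory granule protein chromogranin A, was at 43.3 ± 0.870 FPKM (SD, n = 3) with PBS and 24.8 ± 1.09 with PP. Of the neuroendocrine markers reported here, *CHGA*, *SYP* and *ENO2* fell, *INSM1* rose, and *NCAM1* did not pass. The 7 immune, stromal and endothelial markers summed to 6.32 to 6.39 FPKM with PBS and to 6.14 to 6.54 with PP, with *PTPRC* and *PECAM1* at 4 counts or fewer in each library and *DCN* at 19 or fewer. The others did not move one way. *COL1A1* was at 3.30 ± 0.133 FPKM with PBS and 4.16 ± 0.118 with PP (limma, adjusted p = 0.002), and *CD68* at 1.41 ± 0.117 and 1.09 ± 0.217 without overlap (adjusted p = 0.0524). In a fit that also took genes down to a mean FPKM of 0.1, *COL1A2* was lower, at 0.769 ± 0.139 and 0.417 ± 0.185 FPKM (limma, adjusted p = 0.0164), as was *VWF*, at 0.812 ± 0.0911 and 0.579 ± 0.106 FPKM (adjusted p = 0.036). Their part in the results was not tested. In bulk RNA of this kind, fewer cells of a type and less RNA per cell cannot be told apart.

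After PP, 4 of the 8 genes were higher (*ODC1*, *SRM*, *SAT1* and *AZIN1*) and 2 were lower (*AMD1* and *OAZ2*) at an adjusted p under 0.05 from limma, while *SMS* and *OAZ1* did not pass. The largest differences were on the antizyme side, where *OAZ2* fell by 35.0% and *AZIN1* rose by 38.3%. Over all genes tested, 72.5% passed the same threshold, 38.1% as higher and 34.4% as lower, so the share of the polyamine genes (6 of 8) was near the background. Their median log2 fold change was 0.10, against 0.02 over all genes tested, and their median absolute log2 fold change was 0.22, against 0.27. With an absolute log2 fold change over 0.5 also required, 1 of the 8 passed (*OAZ2*), against 23.8% of all genes. None passed the cutoff that the study's methods give for limma (unadjusted P under 0.001 and more than a doubling or halving), which 5.18% of all genes passed. The 3 PP libraries lay entirely above or below the 3 PBS libraries in 6 of the 8 genes, against 75.0% of all genes.

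**Figure D1:**
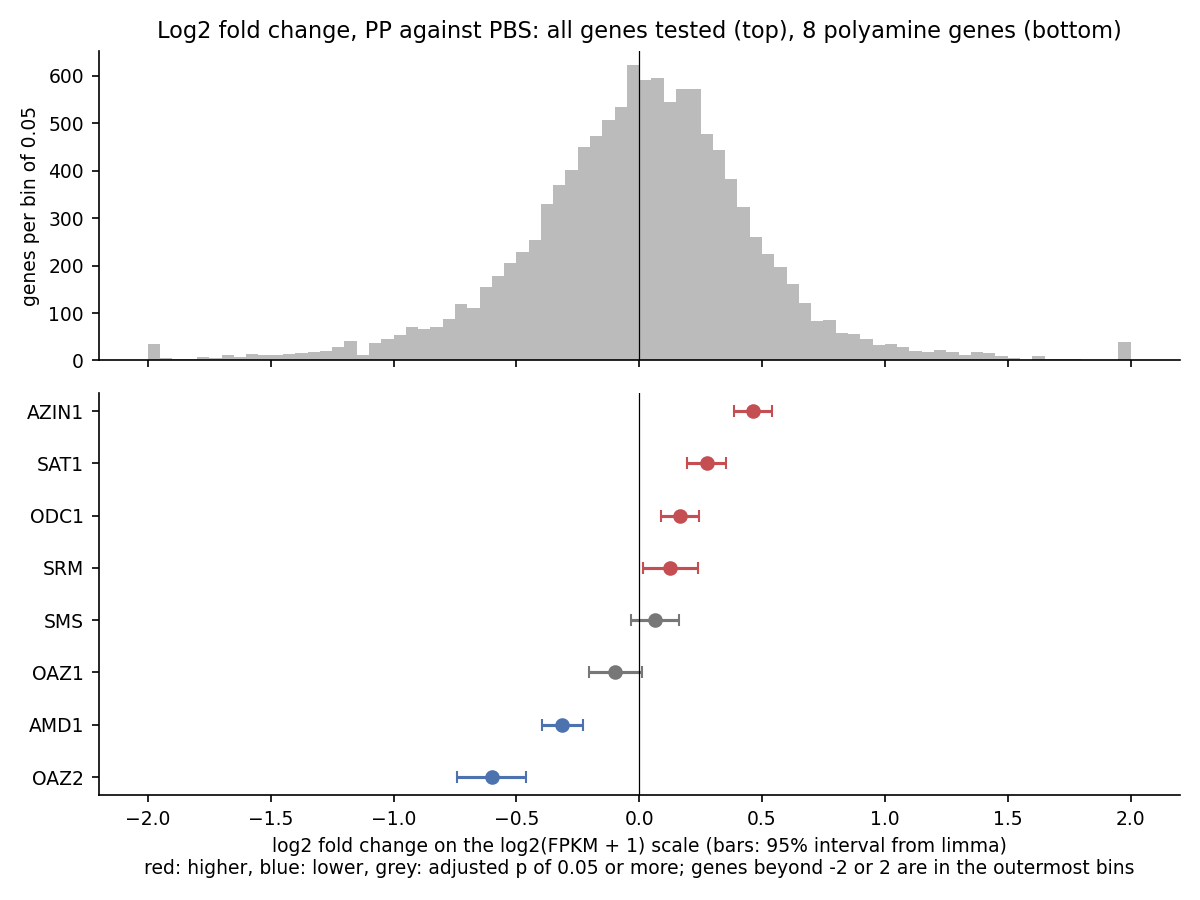
The upper panel counts the tested genes by their log2 fold change with PP (bins of 0.05) and the lower panel gives the 8 polyamine genes with their 95% intervals from limma, on the log2(FPKM + 1) scale. The 8 genes lie between -0.60 (*OAZ2*) and 0.46 (*AZIN1*), inside the bulk of all genes.

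The enzymes of synthesis moved in different directions. *ODC1* (chromosome 2 of GRCh38.p14, 10439968 to 10448327) was at 51.6, 52.6 and 54.3 FPKM in the PBS libraries and at 59.5, 58.5 and 60.1 FPKM in the PP libraries. Every PP library was above every PBS library, by a margin that was small beside the level. The means were 52.9 ± 1.36 (SD, n = 3) and 59.4 ± 0.793 FPKM, a rise of 12.3%, and the log2 fold change was 0.17 with a standard error of 0.03 (limma, adjusted p = 0.00159). Between 4653 and 5940 counts per library stood behind these values. Of all genes tested, 68.3% had a larger absolute log2 fold change than *ODC1*.

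*AMD1* (chromosome 6, 110814617 to 110895713), which supplies the aminopropyl donor, went the other way. Its FPKM was 50.6, 51.4 and 51.9 with PBS and 39.8, 41.2 and 42.4 with PP. The groups did not overlap, and each PP library lay well below each PBS library. The mean fell from 51.3 ± 0.691 to 41.1 ± 1.31 FPKM (SD, n = 3), a change of -19.8%, with a log2 fold change of -0.31 with a standard error of 0.04 (limma, adjusted p = 2.86e-05). *ODC1* and *AMD1* had overlapping levels with PBS and no longer overlapped with PP. The ratio of *AMD1* to *ODC1* FPKM within a library was 0.980, 0.977 and 0.956 with PBS and 0.669, 0.704 and 0.706 with PP. The mean of this ratio changed by -28.6%, and the treatments did not overlap.

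The synthases differed little. *SRM* (chromosome 1, 11054589 to 11060018) was at 52.2, 46.0 and 46.7 FPKM with PBS and at 51.1, 54.2 and 52.8 FPKM with PP. PBS replicate 1 stood above the other PBS libraries and overlapped the PP range. The log2 fold change was 0.13 with a standard error of 0.05 (limma, adjusted p = 0.0443), and this call was lost in 8 of 13 alternative fits, in which the adjusted p ran from 0.00378 to 0.167 over all 13. Without PBS replicate 2, 3, PP replicate 2 or 3, the adjusted p was 0.167, 0.139, 0.138 and 0.0865.

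*SMS* (chromosome X, 21940709 to 21994837) was at 20.5, 19.2 and 20.5 FPKM with PBS and at 20.7, 20.7 and 21.6 FPKM with PP. The PP libraries lay just above the PBS libraries, and the difference did not pass the test, with a log2 fold change of 0.06 and a 95% interval from -0.03 to 0.16 (adjusted p = 0.205 from limma). The ratio of *SMS* to *SRM* FPKM was 0.416 ± 0.0223 with PBS and 0.399 ± 0.0147 with PP (SD, n = 3), and its values overlapped between the treatments. RefSeq lists 3 pseudogenes named after *SRM*, 1 after *SMS*, 4 after *AMD1* and 1 after *OAZ1*, and how reads shared with them were assigned is not given in the sources used here.

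**Figure D2:**
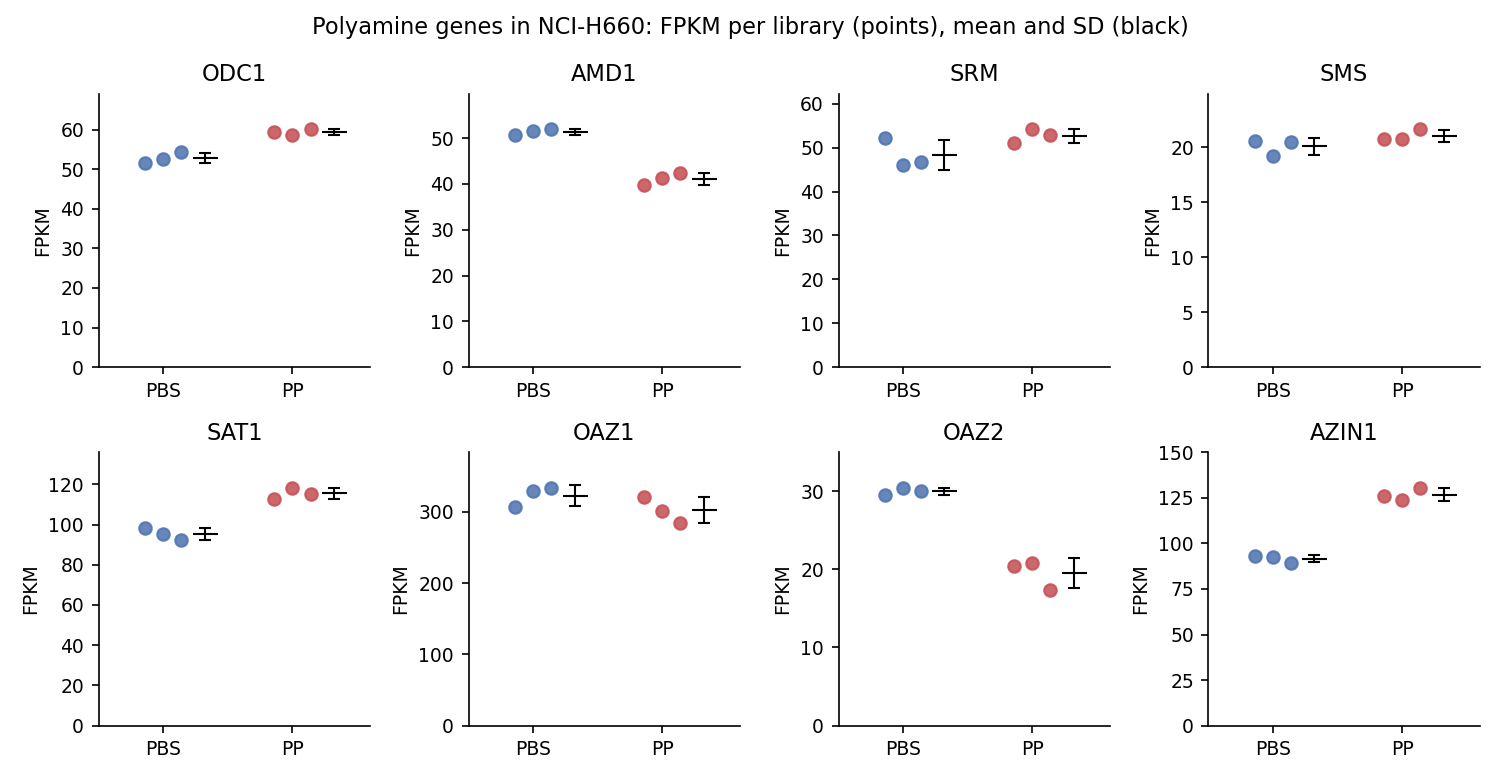
FPKM of the 8 polyamine genes in each PBS and PP library (points, y axis from 0), with the mean and SD of each treatment (n = 3) in black. *AMD1* and *OAZ2* sit lower with PP and *ODC1*, *SAT1* and *AZIN1* sit higher, without overlap, while *SRM* and *OAZ1* overlap between the treatments.

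On the side of catabolism, *SAT1* (chromosome X, 23783173 to 23786210), the acetyltransferase that limits polyamine breakdown, had an FPKM of 98.4, 95.3 and 92.4 with PBS and of 112.8, 118.3 and 115.4 with PP. All PP libraries were above all PBS libraries. The mean rose by 21.1%, from 95.4 ± 2.98 to 115.5 ± 2.76 FPKM (SD, n = 3), and the log2 fold change was 0.27 with a standard error of 0.04 (limma, adjusted p = 5.76e-05). *SAT1* and *ODC1*, the limiting steps of breakdown and synthesis, rose together. The ratio of *SAT1* to *ODC1* FPKM was 1.91, 1.81 and 1.70 with PBS and 1.90, 2.02 and 1.92 with PP, and these values overlapped. *SAT1* was the second most abundant of the 8 genes with PBS, where its level overlapped that of *AZIN1*, and lay below *AZIN1* in every PP library.

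The oxidases and the other acetyltransferases were low or changed little. *SMOX* (spermine oxidase) and *PAOX* (the oxidase of acetylated polyamines) were below the filter, with 5 to 26 and 7 to 25 counts per library. Their FPKM was 0.132, 0.125 and 0.0654 with PBS and 0.346, 0.0676 and 0.224 with PP for *SMOX*, with no separation of the treatments. In a fit that also took genes down to a mean FPKM of 0.1, *SMOX* had a log2 fold change of 0.12 (95% interval -0.07 to 0.32, adjusted p = 0.232 from limma) and *PAOX* of 0.00 (-0.21 to 0.22, adjusted p = 0.986). *SAT2*, a paralog of *SAT1*, rose from 26.9 ± 0.484 to 30.0 ± 0.185 FPKM (SD, n = 3), with a log2 fold change of 0.15 with a standard error of 0.04 (limma, adjusted p = 0.0034). *SATL1*, a further relative, had a log2 fold change of 0.28 and an adjusted p of 0.0667 from limma. Without PBS replicate 1, its highest PBS library at 2.22 FPKM, the log2 fold change of *SATL1* was 0.44 and its adjusted p was 0.000921, within 0.000921 to 0.231 over 12 alternatives, 2 of which passed.

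The antizyme system held the widest differences among the 8 genes. *OAZ1* (chromosome 19, 2269486 to 2273488) was the most abundant of them, at 306.2, 328.7 and 333.9 FPKM with PBS and at 320.7, 301.2 and 284.2 FPKM with PP. The treatments overlapped, since PP replicate 1 lay above PBS replicate 1. The log2 fold change was -0.10 (95% interval -0.20 to 0.01, adjusted p = 0.093 from limma). It passed the threshold in 4 of 13 alternative fits, among them those without PBS replicate 1 (adjusted p = 0.0343) and without PP replicate 1 (0.0176), over a range of 0.0176 to 0.307.

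*OAZ2* (chromosome 15, 64687574 to 64703281) encodes a second antizyme and was at 29.5, 30.4 and 30.0 FPKM with PBS. With PP it was at 20.4, 20.8 and 17.3 FPKM, so that every PP library was below every PBS library and PP replicate 3 was the lowest. The mean went from 30.0 ± 0.463 to 19.5 ± 1.92 FPKM (SD, n = 3), and the log2 fold change was -0.60 with a standard error of 0.06 (limma, adjusted p = 1.12e-05). It was the largest absolute change among the 8 genes, and 16.9% of all genes tested had a larger one. With PBS, *OAZ2* lay above *SMS* in all libraries, and with PP their ranges overlapped.

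*AZIN1* (chromosome 8, 102826302 to 102864200), whose product sequesters the antizymes, was at 93.3, 92.3 and 89.3 FPKM with PBS and at 126.0, 123.6 and 130.5 FPKM with PP. All PP libraries were far above all PBS libraries. The mean rose from 91.6 ± 2.06 to 126.7 ± 3.52 FPKM (SD, n = 3), with a log2 fold change of 0.46 with a standard error of 0.03 (limma, adjusted p = 9.41e-07). Of all genes tested, 27.0% had a larger absolute change. The paralogs of this system were near the filter, *OAZ3* at 34 to 39 counts with PBS and 38 to 53 with PP, and *AZIN2* at 113 to 159 and 133 to 154 counts, and neither passed the test (adjusted p = 0.295 and 0.695 from limma).

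Ratios within a library do not depend on its scaling. The ratio of *AZIN1* to *OAZ1* FPKM was 0.305, 0.281 and 0.268 with PBS and 0.393, 0.410 and 0.459 with PP, a mean 48.0% higher without overlap. The ratio of *OAZ1* to *ODC1* was 5.93, 6.25 and 6.15 with PBS and 5.39, 5.15 and 4.73 with PP, a change of -16.7% in the mean, also without overlap. The summed antizymes (*OAZ1* and *OAZ2*) over their summed binding partners (*ODC1* and *AZIN1*), a ratio chosen after the levels had been seen, went from 2.44 ± 0.113 with PBS to 1.73 ± 0.133 with PP (SD, n = 3). It was 2.32, 2.48 and 2.53 in the PBS libraries and 1.84, 1.77 and 1.58 in the PP libraries. These ratios are of mRNA and carry no test.

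**Figure D3:**
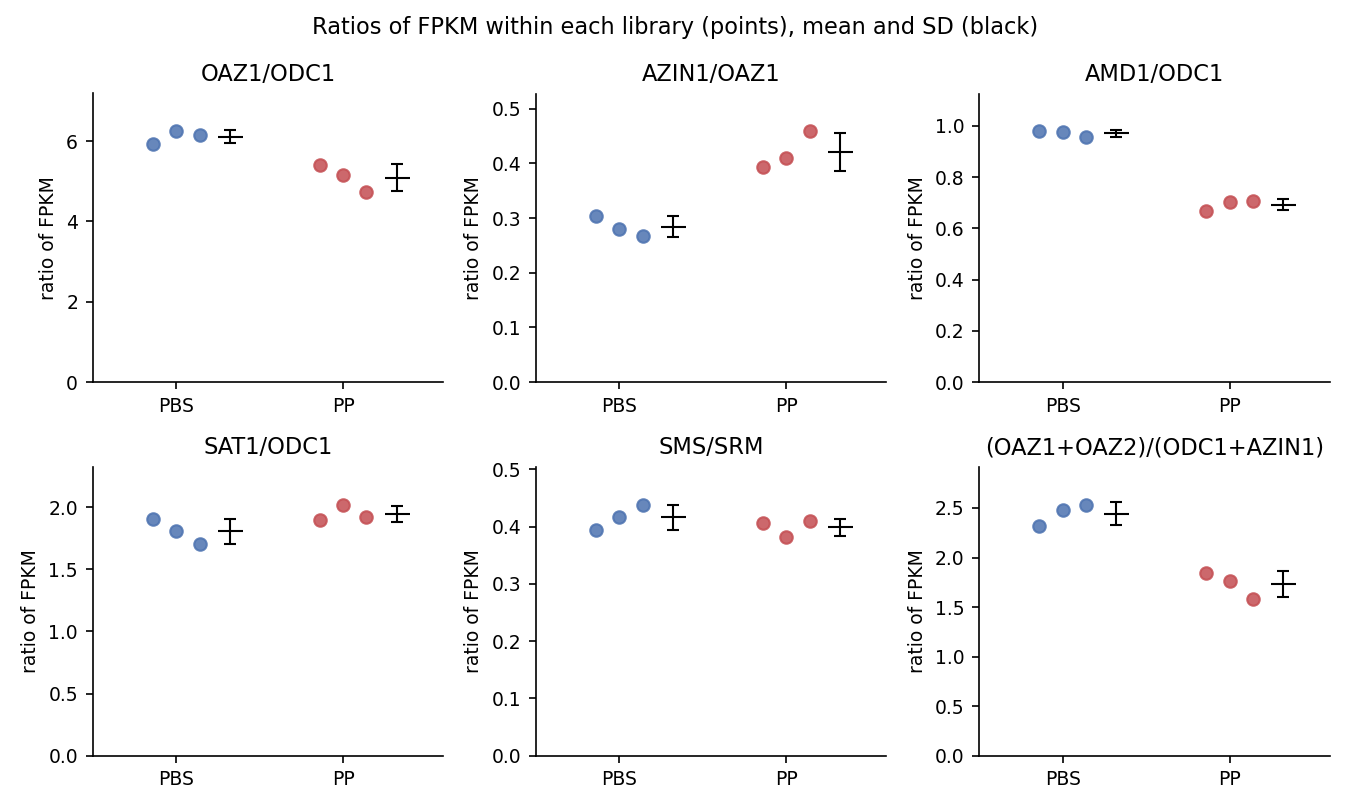
Ratios of FPKM between polyamine genes in each PBS and PP library (points, y axis from 0), with the mean and SD of each treatment (n = 3) in black. AZIN1/OAZ1 is higher and OAZ1/ODC1, AMD1/ODC1 and the summed antizyme ratio are lower in every PP library, while SAT1/ODC1 and SMS/SRM overlap.

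In order of level with PBS, the genes were *OAZ1*, *SAT1*, *AZIN1*, *ODC1*, *AMD1*, *SRM*, *OAZ2* and *SMS*, from 323 to 20.1 FPKM, and the neighbours *SAT1* and *AZIN1*, *ODC1* and *AMD1*, and *AMD1* and *SRM* overlapped in their libraries. With PP the order was *OAZ1*, *AZIN1*, *SAT1*, *ODC1*, *SRM*, *AMD1*, *SMS* and *OAZ2*, and only the last pair overlapped. By the root mean square difference of log2(FPKM + 1), taken from the PBS mean over the 6 libraries, the genes nearest to *ODC1* were *FAM120A* (0.0123), *BTAF1* (0.0142) and *POLE3* (0.0164). Those nearest to *SAT1* were *ASAP1* (0.00949), *MCPH1* (0.0127) and *COPB2* (0.0174). Similar patterns were common, since within a wider distance of 0.1 there were 2246 genes around *ODC1* and 1884 around *SAT1*.

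Around the 8 genes, 47 of 50 other genes listed for the pathway had a deposited value and 36 passed the filter. Of these 36, 16 rose and 10 fell at an adjusted p under 0.05 from limma, against the 72.5% of all genes that passed in either direction. Their median log2 fold change was 0.14 and their median absolute log2 fold change was 0.26.

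The genes of arginine and ornithine supply, which feed ornithine decarboxylase, held 3 of the 5 pathway genes that passed the cutoff of the study. These were 3 of 8 tested, against 5.18% of all genes, in a list chosen with earlier results of these data known. At an adjusted p under 0.05 from limma, 4 of the 8 rose, 1 fell and 3 did not pass, a share no higher than the 72.5% of all genes tested. With an absolute log2 fold change over 0.5 also required, 4 were higher and 1 was lower, against 23.8% of all genes in either direction. *SLC7A2*, a transporter of arginine and other cationic amino acids, was at 1.16, 1.26 and 1.35 FPKM with PBS and at 11.3, 10.2 and 11.3 FPKM with PP. Its mean was 8.70 times higher with PP, and the log2 fold change was 2.40 with a standard error of 0.06 (limma, adjusted p = 5.55e-10), from 291 to 344 and from 2508 to 3001 counts. With a pseudocount of 0.1 the log2 fold change of *SLC7A2* was 3.02.

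*ARG2*, the mitochondrial arginase that makes ornithine from arginine, was at 16.9, 18.8 and 17.8 FPKM with PBS and at 88.0, 82.8 and 84.3 FPKM with PP. All PP libraries were several times above all PBS libraries, with a ratio of means of 4.77 and a log2 fold change of 2.19 with a standard error of 0.05 (limma, adjusted p = 1.35e-10). *ASS1* (argininosuccinate synthase, a step of arginine synthesis) rose from 2.54 ± 0.164 to 8.53 ± 0.671 FPKM and *SLC7A1*, the main cationic amino acid transporter, from 21.5 ± 0.338 to 37.1 ± 0.0749 FPKM (SD, n = 3). Their log2 fold changes were 1.43 and 0.76 (adjusted p = 3.32e-08 and 3.25e-08 from limma). *ARG1*, the cytosolic arginase of liver, was at 0 FPKM in every library but PP replicate 3, where it was at 0.0207 FPKM.

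None of the other genes of this list that passed the filter was called higher. *GATM*, below the filter, was higher in the fit down to a mean FPKM of 0.1 (limma, adjusted p = 0.00545). *OAT*, which links ornithine to proline and glutamate, had a log2 fold change of -0.06 (95% interval -0.19 to 0.07, adjusted p = 0.362 from limma), and *ALDH18A1*, which starts proline and ornithine synthesis from glutamate, of -0.10 (-0.21 to 0.01, adjusted p = 0.103). *ASL*, the lyase after *ASS1*, had 0.09 (-0.04 to 0.21, adjusted p = 0.191). The gene that fell, named after its value was seen, was *SLC25A15*, the mitochondrial ornithine carrier, with 6.16 ± 0.596 FPKM with PBS and 3.87 ± 0.0981 with PP (SD, n = 3). Its log2 fold change was -0.55 with a standard error of 0.07 (limma, adjusted p = 3.45e-05).

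**Figure D4:**
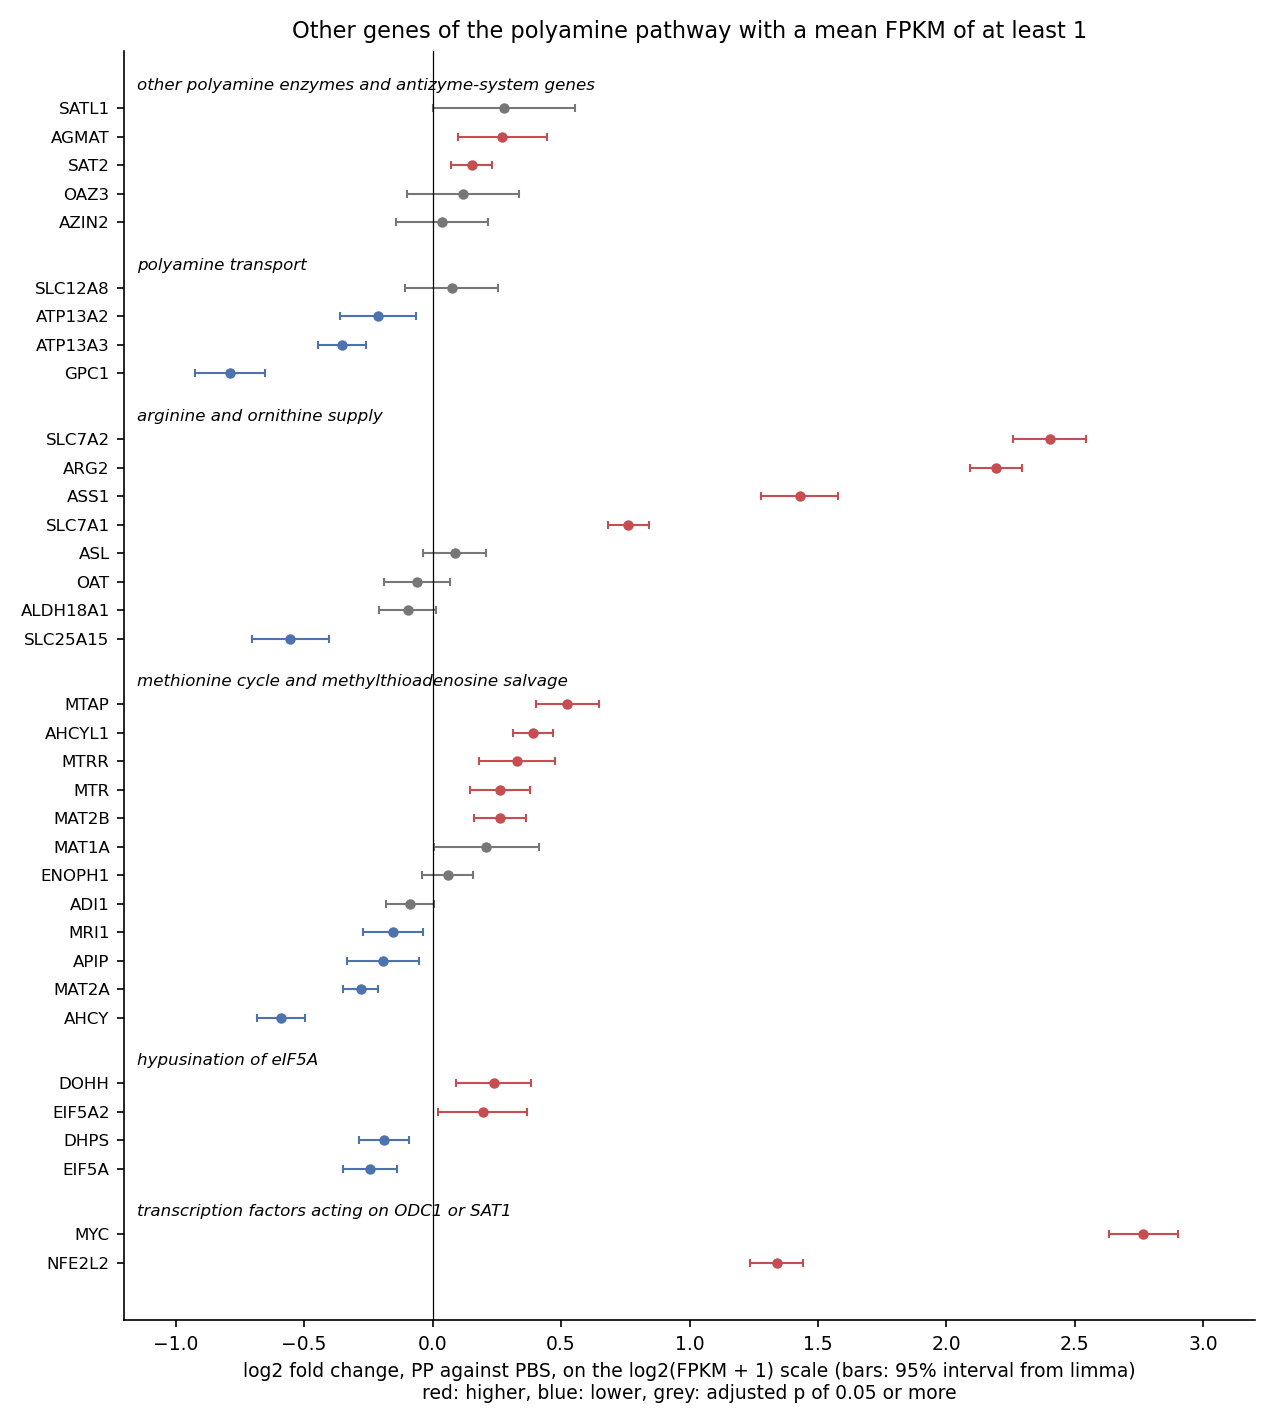
Log2 fold change with PP of the other tested genes of the pathway that are reported here, in their lists, on the log2(FPKM + 1) scale with 95% intervals from limma (n = 3 per treatment). *SLC7A2* (2.40), *ARG2* (2.19) and *ASS1* (1.43) in the arginine list, and *MYC* (2.77) and *NFE2L2* (1.34) among the transcription factors, stand above 1, and the other genes lie between -0.79 and 0.76.

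In the methionine cycle and the salvage of methylthioadenosine, which supply the substrate of *AMD1* and recycle the by-product of *SRM* and *SMS*, 5 of 12 tested genes rose, 4 fell and 3 did not pass, near the background of 38.1% higher and 34.4% lower. *MAT2A*, which makes S-adenosylmethionine, fell from 181.2 ± 3.86 to 149.1 ± 1.41 FPKM (log2 fold change -0.28, adjusted p = 1.57e-05 from limma), and its regulatory partner *MAT2B* rose from 28.7 ± 1.64 to 34.6 ± 0.539 FPKM (0.26, adjusted p = 0.000454). *AHCY*, which clears S-adenosylhomocysteine, fell from 50.3 ± 1.23 to 33.1 ± 1.54 FPKM (-0.59, adjusted p = 7.16e-07), and its relative *AHCYL1* rose from 27.3 ± 0.224 to 36.1 ± 0.350 FPKM (0.39, adjusted p = 3.46e-06). *MTAP*, the first enzyme of the salvage route and a gene lost in many tumors, was at 7.12, 7.14 and 7.31 FPKM with PBS and at 10.8, 10.1 and 11.5 FPKM with PP. It rose by 50.1% (log2 fold change 0.52, standard error 0.05, adjusted p = 1.15e-05 from limma).

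Of 4 tested genes of polyamine transport, 3 fell, 0 rose and 1 did not pass. Over all genes 72.5% passed, 34.4% as lower, and 4 genes are too few to set this list apart. *GPC1*, a cell-surface proteoglycan implicated in polyamine uptake, went from 8.99, 9.02 and 9.26 FPKM with PBS to 5.06, 4.36 and 5.13 FPKM with PP. This was a change of -46.6% in the mean (log2 fold change -0.79, standard error 0.06, adjusted p = 1.33e-06 from limma), and *GPC1* has other roles as a co-receptor. The polyamine-transporting ATPases were also lower, *ATP13A3* at 31.1 ± 0.207 with PBS and 24.2 ± 1.04 FPKM with PP and the lysosomal *ATP13A2* at 29.7 ± 0.905 and 25.6 ± 2.68 FPKM (SD, n = 3). Their log2 fold changes were -0.35 and -0.21 (adjusted p = 2.83e-05 and 0.0156 from limma). The call of *ATP13A2* was lost without PBS replicate 2 and in the fit without a filter (adjusted p = 0.0551 and 0.0532, with 0.000975 to 0.0551 over all its alternatives), and without PP replicate 3 its log2 fold change was -0.13. *SLC12A8* had a log2 fold change of 0.07 (95% interval -0.11 to 0.26, adjusted p = 0.43).

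Spermidine is also the substrate for hypusine, a modified lysine in the translation factor eIF5A. Of the 4 genes of this step, 2 fell and 2 rose, 1 of the latter (*EIF5A2*) in a call that did not hold in most alternative fits, against 34.4% lower and 38.1% higher over all genes. *EIF5A* itself went from 69.2 ± 2.56 to 58.3 ± 3.37 FPKM and *DHPS*, which transfers the spermidine part, from 75.0 ± 1.25 to 65.8 ± 3.90 FPKM (SD, n = 3). Their log2 fold changes were -0.24 and -0.19 (adjusted p = 0.000866 and 0.00305 from limma). *DOHH*, which completes hypusine, rose from 6.20 ± 0.460 to 7.49 ± 0.501 FPKM (0.24, adjusted p = 0.00759). *EIF5A2*, the low paralog at 1.38 ± 0.0642 and 1.72 ± 0.225 FPKM, had 0.19 (adjusted p = 0.0456), a call lost in 8 of 12 alternative fits (adjusted p 0.013 to 0.15 over all), including those that left out any library but PP replicate 2. Among the remaining enzymes, *AGMAT*, an agmatinase-like gene, was at 1.06 ± 0.0939 and 1.49 ± 0.167 FPKM (log2 fold change 0.27, adjusted p = 0.00943).

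The transcription factors known to act on *ODC1* or *SAT1* included *MYC* and *NFE2L2*, which were higher. *MYC* was at 7.05, 5.99 and 6.13 FPKM with PBS and at 46.9, 51.5 and 49.2 FPKM with PP. Its log2 fold change was 2.77 (limma, adjusted p = 1.75e-10), beside 0.17 for *ODC1* and 0.13 for *SRM*. Windows of *ODC1* and *SRM* hold CACGTG, a match of letters for which binding was not measured. *MYCN*, the family member of neuroendocrine tumors, was low, at 0.939, 0.535 and 0.796 FPKM with PBS and at 0.498, 0.355 and 0.175 FPKM with PP, or 41 to 76 and 15 to 40 counts. In the fit down to a mean FPKM of 0.1, its log2 fold change was -0.39 with a standard error of 0.11 (limma, adjusted p = 0.0108). *NFE2L2* (NRF2), known to act on *SAT1*, rose from 25.5 ± 1.32 to 66.1 ± 2.57 FPKM (SD, n = 3), with a log2 fold change of 1.34 (adjusted p = 3.8e-09 from limma) beside 0.27 for *SAT1*. The part of these factors in the levels of the polyamine genes was not tested.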

How the data were processed

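RNA-seq libraries of NCI-H660 cells were analysed from the FPKM values that the authors deposited by gene symbol for 3 PBS and 3 PP libraries. The processing notes of the submitters name fastp, HISAT2, HTSeq and GRCh38, whereas the methods name Bowtie, hg19, RSEM, Cufflinks and HTSeq-count, and which produced the values is not given in the sources used here. The methods state 2 samples per group, whereas the legends of this experiment and the labels give 3, and all 6 labelled libraries were used. Of the 17177 symbols, none was repeated and 268 had no reads.

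After a filter at a mean of 1 FPKM, genes were fitted on log2(FPKM + 1) with limma 3.58.1 in R 4.3.3 (eBayes, trend on), with Benjamini-Hochberg adjustment over all genes tested. Fold changes on this scale understate those of low genes. Whole counts were recovered from the steps of the values with a tolerance of 0.01 of a count, in Python 3.11.15. The smallest counts that fitted were taken, so a gene above 0 in only 1 library is given 1 count whatever its true count. Counts cover counting error only. The recovery and the fit were tested on simulated data.

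The 8 genes, the other lists and the tests were chosen with earlier results of these data known. Genes were named by rule: the 8 genes, direct steps of the pathway and the 3 largest absolute changes of each other list. *OAZ3*, *ASL*, *ARG1*, *SLC25A15*, *MAT2B*, *SLC12A8*, *SLC18B1*, *GATM*, *BHMT* and the markers fall outside it and were named after their values were seen. Symbols without a value here (*SLC22A2*, *SLC22A3* and *SLC7A3*, and the marker *KLK3*) were not analysed. The alternatives changed the filter, pseudocount, scaling, eBayes trend, libraries or replicate block, or used limma-voom on recovered counts. Coordinates and promoter windows are from RefSeq on GRCh38.p14. Some genes of the lists are counted but not reported here by name.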

Additional observations from a re-analysis of the deposited data

How the results depend on the processing

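Across 13 alternatives, *ODC1*, *SAT1* and *AZIN1* stayed higher, *AMD1* and *OAZ2* stayed lower, and *SMS* stayed short of the threshold. *SRM* lost its call without the eBayes trend (0.13), without a filter (0.13), with median-ratio size factors (0.10) and in 4 of the 6 fits that each left out a library, which spanned 0.092 to 0.18. *OAZ1* passed the threshold with median-ratio size factors (-0.12), with limma-voom on recovered counts (-0.10) and in 2 of the 6 fits with a library left out, which spanned -0.14 to -0.054. Without PBS replicate 2 the difference of *AZIN2* was reversed at -0.016, within -0.016 to 0.088 over those fits, and it passed the threshold in none of its 12. At the cutoff of the study, the 263 higher and 344 lower genes became 397 and 559 with limma-voom, and 531 were lower with a pseudocount of 0.1. The cause was not tested. Median-ratio scaling moved the median log2 fold change of all genes from 0.02 to 0.0014.

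The deviations of same-numbered libraries from their group means correlated at -0.211, -0.014 and -0.127. Of the 6 libraries, 0 correlated best with their own number. With 3 libraries per treatment, this check cannot tell whether the libraries were paired in the experiment. With the replicate block, *SRM* (0.13, adjusted p = 0.0819) was past the threshold no longer, and 3 of the 8 genes were higher and 2 lower.

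At this depth, the genes with few counts (*SMOX*, *PAOX*, *MYCN*) are known only roughly, and 3 libraries per treatment limit the precision of the others.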

Other observations

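Among the listed genes below the filter, *GATM*, which makes the creatine precursor from arginine and releases ornithine, was at 0.120, 0.0805 and 0.151 FPKM with PBS and at 0.374, 0.290 and 0.319 FPKM with PP, which were 7 to 14 and 26 to 34 counts per library. In the fit down to a mean FPKM of 0.1, its log2 fold change was 0.25 with a standard error of 0.06 (limma, adjusted p = 0.00545). *BHMT*, which remakes methionine from betaine in liver, had 0 counts in every PBS library and 4 to 7 counts in each PP library. *SLC18B1*, a vesicular polyamine transporter, was at 0.392 ± 0.0907 FPKM with PBS and 0.486 ± 0.195 with PP (SD, n = 3), and did not pass in the same fit (adjusted p = 0.449 from limma). Summed within each library, the FPKM of the arginine and ornithine list was 91.1 to 96.6 with PBS and 187.7 to 191.6 with PP. Of this sum, *ARG2* alone had a mean of 17.8 FPKM with PBS and 85.1 with PP. Of the 8 tested genes of that list, 4 rose, 1 fell and 3 did not pass at an adjusted p under 0.05 from limma, which 72.5% of all genes passed. The sum of the transport list was 71.4 to 73.2 with PBS and 55.0 to 59.2 with PP. That of the 8 polyamine genes was 702.3 to 719.2 and 724.5 to 751.1.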
